A study of Mus musculus with 1677 samples.

Results

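The gene set described here holds 34 genes of mitochondrial and peroxisomal fatty acid beta-oxidation, chosen by name from the 24533 rows of a count table and followed through 22 mouse tissues. It covers the carnitine shuttle, the mitochondrial acyl-CoA dehydrogenases and downstream enzymes, the enzymes for unsaturated fatty acids, the electron transfer flavoprotein, the peroxisomal enzymes, and acyl-CoA thioesterases with carnitine acetyltransferase. The libraries came from wild type C57BL/6J mice, bought at 10 weeks of age and kept on chow for 2 weeks under 12 h of light and 12 h of dark. All mice then ate a Western diet (45% fat, 17% sucrose) for 7 weeks, either at any hour (ad libitum feeding, ALF) or only from 13 to 22 h after lights on (time-restricted feeding, TRF, a window of 9 h). Both groups therefore share the high-fat diet, and no chow-fed group was analysed here. Polyadenylated RNA was sequenced at 12 clock times, every 2 h from ZT0 (lights on) to ZT22, in 517 ALF and 518 TRF libraries. Most combinations of tissue, regimen and hour (507 of 528) were covered by 2 libraries, and 21 by 1. The sources used here do not say whether libraries came from separate animals, so p-values measure the spread between libraries. The comparison asked how the level of each gene in TRF differed from ALF in the rest and daytime fast of TRF mice (ZT0 to ZT12, hereafter ZT0-12) and in the hours with food (ZT14 to ZT22, hereafter ZT14-22), and when in the day each gene peaked.

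Beta-oxidation shortens fatty acids by cycles of dehydrogenation, hydration, a further dehydrogenation and thiolytic cleavage, each cycle releasing acetyl-CoA. Long-chain acyl groups enter mitochondria as carnitine esters through CPT1, the translocase encoded by Slc25a20 and CPT2, while very long chains are first shortened in peroxisomes. Many of these genes are targets of the fatty acid receptor PPAR-alpha, and liver, heart, kidney and brown fat are known for a high capacity for fatty acid oxidation, above all in fasting.

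Library totals ran from 2.259 M to 500.6 M counts, with a median of 11.256 M. A total of 18 libraries stood apart. Of these, 15 correlated best with a tissue other than their own label, among them 4 labelled kidney medulla (KIM) that resembled kidney cortex (KIC), 5 labelled inguinal fat (iWAT, all ALF) that resembled epididymal fat (eWAT), and 1 duodenum and 1 ileum TRF library of ZT4 that each resembled the other segment. The other 3 exceeded 100 M counts (2 lung TRF libraries and 1 muscle ALF library). They were kept, and the calls of each tissue in each window and for rhythms were repeated without them. The defining markers of the labelled cell type were high in liver, heart and adrenal. Hepatocyte genes summed to at least 83300 CPM in every liver library and cardiomyocyte genes to at least 48500 CPM in every heart library. Adrenal cortex genes summed to at least 40300 CPM in every adrenal library. In brown fat in ZT0-12 the lowest, median and highest sums of brown adipocyte genes were 4790, 9290 and 17000 CPM in ALF. In TRF they were 4280, 8040 and 12500 CPM. Skeletal muscle fibre genes summed there to 2140, 5310 and 16800 CPM in ALF and 2200, 8350 and 17000 CPM in TRF. Pancreatic acinar genes ranged from 57100 to 942000 CPM over the pancreas libraries. In kidney medulla the proximal tubule genes, which mark cortex, summed to 40300 to 87500 CPM, near the 47900 to 82100 CPM of kidney cortex, while genes of the loop of Henle and collecting duct summed to 5420 to 19800 CPM there and 4030 to 8100 CPM in cortex. These are bulk tissues, in which fewer cells of a type and less RNA per cell cannot be told apart.

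The upstream sequence is shown for some members whose promoters hold letters that PPAR-alpha is known to bind, and for the pair that starts head to head. A link between these letters and the changes below was not tested. RefSeq promoter windows (GRCm38.p6) matched 29 of the 34 members, 32 windows in all. The 5 not matched were Acaa2, Cpt1b, Crat, Decr1 and Hsd17b4. The 250 bases before each start were searched on both strands. PPAR-alpha binds with RXR to AGGTCA hexamers repeated 1 base apart, and such a repeat with at most 2 of 12 letters off stood in 3 members (Acot4, Echs1 and Etfa) against 3.23% of 32817 promoters searched. The 3 repeats follow 5′ to 3′ on the strand that carries them, with capitals for the letters that match the motif:

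Acot4 repeat, chr12:84038366-84038378, minus strand, from 13 bases before the start: cGGcCAaAGGTCA

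Echs1 repeat, chr7:140116492-140116504, minus strand, from 83 bases before the start: AGGTCAcgGGTCc

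Etfa repeat, chr9:55512308-55512320, plus strand, from 77 bases before the start: AGGgCAaAGGTaA

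The Acot4 window also held the E box CACGTG, found in 6.02% of the promoters searched and in no other member matched. It is printed on the plus strand with the E box and the repeat (here read on the other strand) in capitals:

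Acot4 upstream, chr12:84038129-84038378: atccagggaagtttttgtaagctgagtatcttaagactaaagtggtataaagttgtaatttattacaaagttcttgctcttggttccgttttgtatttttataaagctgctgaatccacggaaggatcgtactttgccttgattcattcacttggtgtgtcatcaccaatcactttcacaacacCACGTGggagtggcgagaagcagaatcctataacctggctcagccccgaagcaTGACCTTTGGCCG

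An AGGTCA hexamer stood in 5 members (Acadm, Acadvl, Acot4, Cpt1a and Echs1) and in 4604 of the 32817 promoters. The stretch before the RefSeq start of Cpt1a lies, in GENCODE vM21, in the intron after an exon at 3322334 to 3322698 of chromosome 19, and carries the hexamer on the minus strand, in capitals:

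Cpt1a upstream, chr19:3323051-3323284: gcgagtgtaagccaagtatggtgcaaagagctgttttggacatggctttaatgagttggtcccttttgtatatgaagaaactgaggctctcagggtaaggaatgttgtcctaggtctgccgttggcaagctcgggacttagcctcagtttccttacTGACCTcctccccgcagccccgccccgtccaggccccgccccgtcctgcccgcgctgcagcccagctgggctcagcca

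Hadha and Hadhb encode both subunits of the mitochondrial trifunctional protein and start head to head on chromosome 5, Hadha on the minus and Hadhb on the plus strand. The 85 bases between them have 69.4% GC and 2 GC boxes (GGGCGG, in capitals), a motif held by 18 members and 32.7% of promoters:

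Hadha to Hadhb, chr5:30155163-30155247: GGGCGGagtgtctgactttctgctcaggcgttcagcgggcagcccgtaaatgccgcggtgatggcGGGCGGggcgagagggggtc

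These matches are letters in a window, with no measure of binding. Acot1, Acot2, Acot3 and Acot4 lie side by side within 72.5 kb of chromosome 12 (83987861 to 84060402) and are near copies of each other, as are Acaa1a and Acaa1b on chromosome 9. How reads shared by such copies were counted is not given in the sources used here, so their separate values are uncertain. Mean CPM of Hadhb was below that of Hadha in all 22 tissues, 7.89% of it in ileum at the lowest and 8.55 against 48.9 CPM in pancreas, and the gene model behind the counts is not given in the sources used here.

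On the scale of CPM per kb of the longest GENCODE transcript, averaged over the libraries of a tissue, most of the mitochondrial enzymes were highest in brown fat (BAT), with heart next. Acadl (long-chain acyl-CoA dehydrogenase) had 2282 CPM per kb in brown fat, 894.6 in heart and 15.6 in pancreas. Acadm (the medium-chain enzyme) had 1935 in brown fat, 1004 in heart and 809 in kidney medulla. The carnitine palmitoyltransferases divided by tissue, with the muscle form Cpt1b at 366 CPM per kb in brown fat, 352 in heart and 166 in muscle, and the liver form Cpt1a at 152 in kidney cortex, 114 in liver and 3.87 in muscle. The brown fat libraries also held skeletal muscle fibre genes, whose part in the levels of brown fat was not tested. Of the peroxisomal genes, Hsd17b4 was also highest in brown fat (213 CPM per kb), while others followed another order. Ehhadh, the peroxisomal bifunctional enzyme, reached 474 CPM per kb in kidney medulla and 443 in kidney cortex, against 82.7 in liver. Crot, which hands shortened acyl groups to carnitine, reached 536 in kidney medulla, and the thiolase Acaa1b reached 462 in liver and 0.28 in heart. The thioesterases were low throughout, Acot1 being highest in kidney medulla at 24.8 CPM per kb and Acot2 in heart at 55.7. Neighbours in these orders often lay within their spread: Ehhadh, on the CPM scale, was 1413 ± 471 in kidney medulla and 1322 ± 437 in kidney cortex (SD over libraries).

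**Figure D1:**
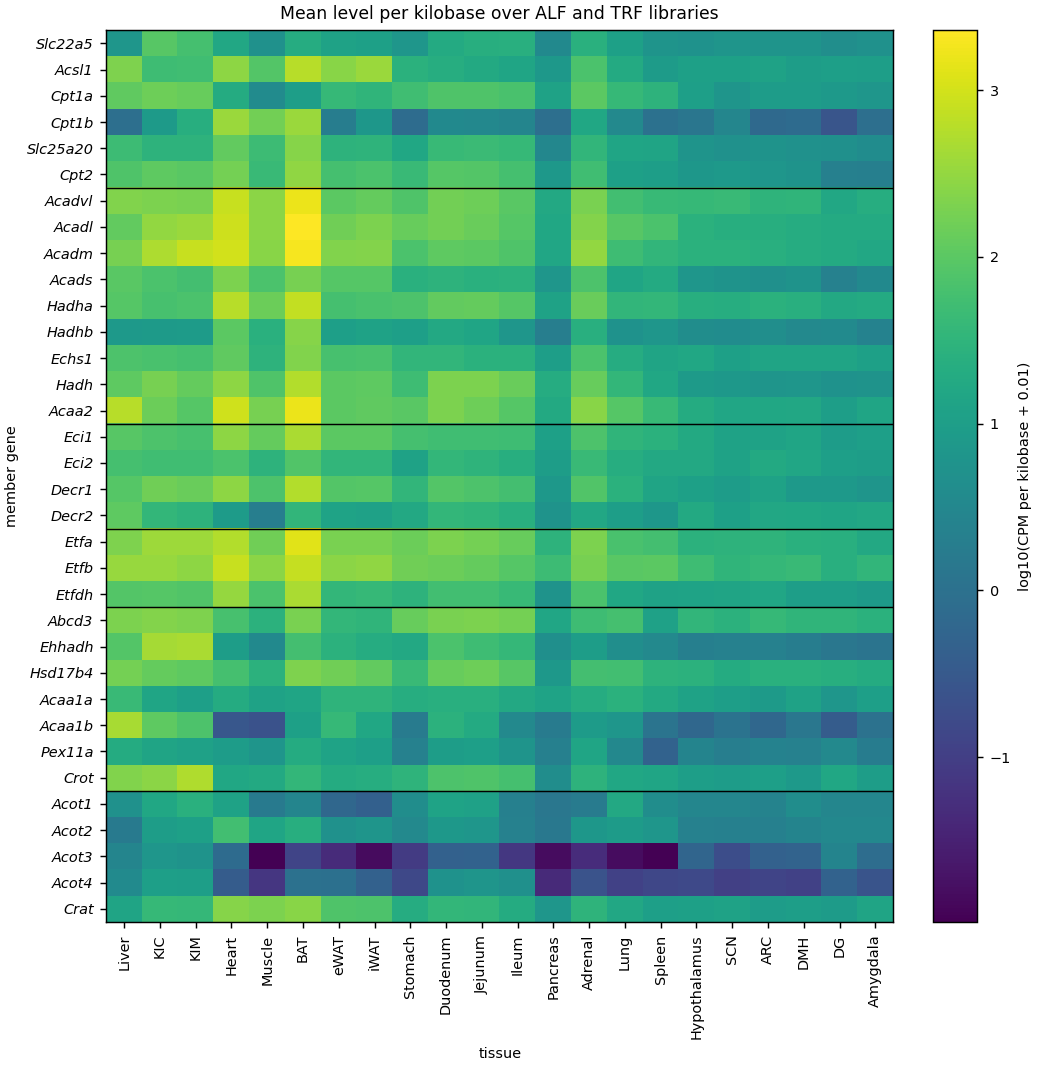
Mean level of the 34 members (rows, by role) in 22 tissues (columns), as log10 of CPM per kb of the longest transcript plus 0.01, averaged over all libraries of a tissue. Brown fat and heart are the brightest columns for the mitochondrial rows, whereas Ehhadh and Crot are brightest in kidney and Acaa1b in liver.

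Of 748 pairs of member and tissue, 725 passed the filter on low counts and were tested with edgeR's quasi-likelihood test, with Benjamini-Hochberg adjustment over all genes of the tissue and 0.05 as the threshold. In ZT0-12 members were higher in TRF in 97 pairs (13.4% of pairs) and lower in 38 (5.24%), beside 5.35% higher and 5.61% lower over all genes tested. In ZT14-22 they were higher in 47 pairs (6.48%) and lower in 73 (10.1%), beside 7.37% and 7.14% over all genes. The median log2 fold change (TRF minus ALF) over the pairs was 0.055 in ZT0-12 and -0.035 in ZT14-22. All 34 members passed in at least 1 tissue and window, and 16 of the 22 tissues had a call. The calls depended on the replicates: without the libraries numbered 1 the calls came to 11 in ZT0-12 and 23 in ZT14-22, and without those numbered 2 to 67 and 51. All 135 and 120 calls kept their sign, but these fits reuse libraries that made the calls, so the kept sign is no independent support. With offsets for GC content 113 and 117 pairs passed, 104 and 95 of them shared with the calls above in the same direction.

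By role, the thioesterases and carnitine acetyltransferase, which free or buffer acyl groups, rose most often in ZT0-12, in 23 of 92 pairs tested, and fell in 3. Acot1 (cytosolic) rose in 8 tissues, Acot2 (mitochondrial) in 7, Crat in 4, the peroxisomal Acot4 in 3 and Acot3 in 1, whereas Crat, Acot3 and Acot4 fell in 1 each. Among the 6 genes of entry and the carnitine shuttle 16 of 131 pairs rose and 6 fell. Cpt1a, which makes the acylcarnitine that enters mitochondria, rose in 5 tissues and fell in 1, the translocase Slc25a20 rose in 4 and fell in 1, the acyl-CoA synthetase Acsl1 rose in 3 and fell in 2, Cpt2 rose in 2 and fell in 1, Cpt1b rose and fell in 1 each, and the carnitine transporter Slc22a5 rose in 1. Of the enzymes for unsaturated fatty acids, 12 of 88 pairs rose and 2 fell. The isomerase Eci2 rose in 6 tissues and fell in none, Eci1 rose in 3 and fell in 1, and the dienoyl-CoA reductases Decr1 and Decr2 rose in 2 and 1, with 1 fall for Decr1. In the mitochondrial spiral 21 of 198 pairs rose and 12 fell, with Acadl and Hadha up in 4 tissues each, Acadvl and Hadhb up in 3, and Acads and Hadh down in 3. The peroxisomal genes rose in 19 of 150 pairs, Ehhadh in 6 tissues, and fell in 10, the thiolase Acaa1a in 4. Electron transfer genes rose in 6 of 66 pairs and fell in 5. Among all genes tested 5.35% were higher and 5.61% lower in this window. The falls of the entry, spiral and peroxisomal groups lay near that share. With GC offsets the peroxisomal rises came to 12 and those of electron transfer to 2, and 1 fall was left for unsaturated fatty acids.

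In ZT14-22 falls outnumbered rises in the mitochondrial spiral (11 up, 23 down of 198 pairs) and electron transfer (4 up, 11 down of 66). They also did in entry (6 up, 11 down of 131) and the peroxisomal genes (10 up, 16 down of 150). Over all genes tested 7.37% were higher and 7.14% lower in this window. Of the 73 falls over all members liver had 22, iWAT 15 and heart 12. Acadm fell in 6 tissues, Acads and Etfa (a subunit of the electron transfer flavoprotein) in 5 each, and Cpt1a, Hadh, Decr1, Etfdh, Acaa1a and Crot in 4 each. Rises were led by Eci1 in 5 tissues and Eci2 in 4, and the unsaturated fatty acid enzymes as a group had 11 rises and 7 falls. The thioesterase group had 5 rises and 5 falls in this window. With GC offsets the spiral had 14 rises and 21 falls, electron transfer 4 and 7, entry 8 and 13, and the peroxisomal genes 10 and 12. The 23 pairs that were not tested had too few counts: Acot3 in 11 tissues, Acot4 in 7, Acaa1b in 4 and Cpt1b in the dentate gyrus (DG).

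**Figure D2:**
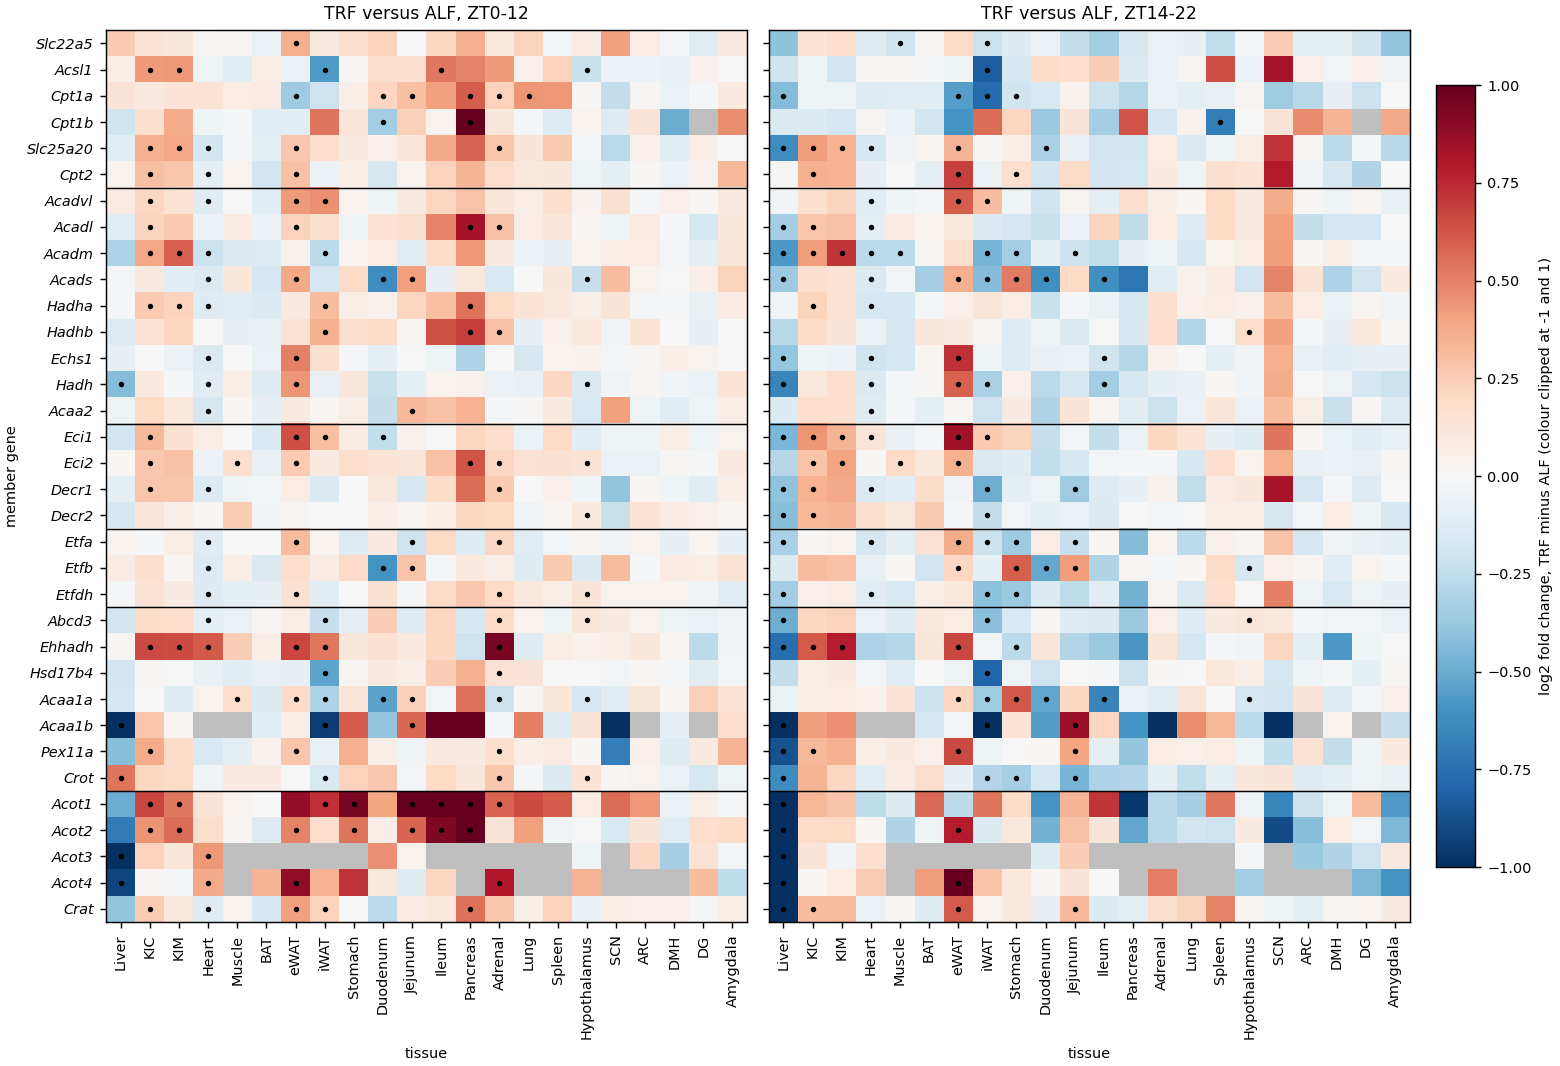
Log2 fold change (TRF minus ALF) of each member (rows, by role) in each tissue (columns), in ZT0-12 on the left and ZT14-22 on the right, with a dot where the adjusted p is under 0.05 and colours clipped at -1 and 1. Grey cells were not tested. Kidney cortex, kidney medulla and eWAT columns are mostly higher in TRF in both windows, and the liver column is lower in ZT14-22.

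In the tissues below, levels are CPM scaled by TMM, given as the lowest, median and highest library of each feeding group, followed by the log2 fold change ± SE from edgeR and its adjusted p. In the tissues given with values, n = 14 libraries a feeding group in ZT0-12 and n = 10 in ZT14-22, except lung in ZT0-12 (n = 13) and pancreas in ZT14-22 (8 TRF libraries). Counts at an unadjusted p under 0.05, here and for rhythms, are of members only. The share of all genes at that limit was not computed, so it is unknown whether members exceeded it.

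In kidney cortex, beta-oxidation genes were higher in TRF in both windows. In ZT0-12 15 of 34 members rose and none fell, beside 1.16% of all genes higher, and in ZT14-22 12 rose and none fell, beside 2.95%. The median fold change of the members was 0.21 and 0.20 on the log2 scale. Of the 34, 32 and 30 were positive, beside 49.7% and 49.4% of all genes. Ehhadh had 670.2, 908 and 1633 CPM in ALF and 966, 1516 and 2404 CPM in TRF in ZT0-12. Every TRF library lay above the ALF median, although the groups overlapped. Its log2 fold change was 0.66 ± 0.13 (adjusted p = 0.00583), with TRF higher at 6 of 7 clock times, and 0.62 ± 0.16 (adjusted p = 0.0123) in ZT14-22. Acadm, the medium-chain dehydrogenase, had 666, 813 and 1200 CPM in ALF and 912, 1133 and 1393 CPM in TRF, a change of 0.39 ± 0.07 (adjusted p = 0.00402), and was higher at all 7 clock times. Slc25a20 had 57, 75.1 and 87 CPM in ALF and 68.4, 106 and 133 CPM in TRF in ZT14-22, a change of 0.42 ± 0.07 (adjusted p = 0.000351). The ranges overlapped, although TRF was higher at each of the 5 clock times. Acot1 rose by 0.67 ± 0.15 (adjusted p = 0.0146) in ZT0-12, and the isomerase Eci1 by 0.32 ± 0.07 (adjusted p = 0.00599) and then 0.45 ± 0.08 (adjusted p = 0.000513). Proximal tubule markers, the cells known for fatty acid oxidation in kidney, did not pass in ZT0-12 and went 1 up and 1 down of 7 in ZT14-22, where they summed to 52300, 57800 and 66100 CPM in ALF and 61400, 66200 and 74800 CPM in TRF. Their part in the result was not tested. Without the libraries numbered 1, or without those numbered 2, no member passed in either window, although 10 and 21 members in ZT0-12 and 18 and 8 in ZT14-22 had an unadjusted p under 0.05, each of them higher in TRF.

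Kidney medulla showed the same direction, with 7 of 34 members higher and none lower in ZT0-12 (all genes 0.361% higher) and 5 higher and none lower in ZT14-22 (0.753%). Acadm had 798, 1189 and 1819 CPM in ALF and 1363, 1946 and 2240 CPM in TRF in ZT0-12, and 1110, 1248 and 1687 CPM in ALF and 1617, 2136 and 2689 CPM in TRF in ZT14-22. The ranges overlapped in both windows, and each TRF median lay above the highest ALF library. Its log2 fold changes were 0.60 ± 0.09 (adjusted p = 0.00144) and 0.71 ± 0.11 (adjusted p = 0.00035). Ehhadh had 669.9, 916 and 1606 CPM in ALF and 1265, 1621 and 2379 CPM in TRF in ZT0-12, with changes of 0.65 ± 0.13 (adjusted p = 0.00868) and, in ZT14-22, 0.79 ± 0.15 (adjusted p = 0.00443). Acot2, the mitochondrial thioesterase, rose by 0.56 ± 0.13 (adjusted p = 0.0285) in ZT0-12. Leaving out the 4 medulla libraries that resembled cortex left 9 rises in ZT0-12 and 4 in ZT14-22, and GC offsets left 7 and 10. As in cortex, no member passed without the libraries numbered 1 or 2, beside 7 and 16 in ZT0-12 at an unadjusted p under 0.05.

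In eWAT far more members rose than fell, and the 1 that fell in each window was Cpt1a. In ZT0-12 18 of 33 members rose and 1 fell, beside 19.4% of all genes higher, and in ZT14-22 16 rose and 1 fell, beside 23.7%. Acot4 had 2.36, 2.68 and 3.68 CPM in ALF and 4.38, 9.02 and 19.7 CPM in TRF in ZT14-22. No ALF library reached the lowest TRF library. The change was 1.70 ± 0.28 (adjusted p = 3.87e-05), after 0.88 ± 0.24 (adjusted p = 0.00501) in ZT0-12. Cpt2, which returns acyl groups to CoA inside mitochondria, had 92.6, 109.6 and 137 CPM in ALF and 144, 176 and 231 CPM in TRF, a change of 0.69 ± 0.11 (adjusted p = 3.24e-05), and again the groups did not overlap. Crat rose by 0.61 ± 0.11 (adjusted p = 6.56e-05) and Eci1 by 0.84 ± 0.16 (adjusted p = 0.000128) in ZT14-22. In ZT0-12 Eci1 had 60.6, 81.9 and 155 CPM in ALF and 65.5, 158 and 189 CPM in TRF, a change of 0.65 ± 0.14 (adjusted p = 0.00158), and the hydratase Echs1 changed by 0.51 ± 0.12 (adjusted p = 0.00239). The ranges of Eci1 overlapped in this window. Cpt1a had 141, 194 and 283 CPM in ALF and 112, 127 and 175 CPM in TRF in ZT14-22 and was lower at all 5 clock times, a change of -0.55 ± 0.13 (adjusted p = 0.000627), after -0.35 ± 0.11 (adjusted p = 0.0105) in ZT0-12. Cell type markers moved with these genes. White adipocyte markers rose in 7 and fell in 1 of 10 in ZT0-12 and rose in 9 in ZT14-22, where they summed to 16800, 31600 and 43000 CPM in ALF and 44000, 50300 and 57200 CPM in TRF. Macrophage markers fell in 5 of 5 in both windows, with sums of 836, 2720 and 5420 CPM in ALF and 839, 1270 and 1460 CPM in TRF in ZT14-22. Erythroid markers rose in 5 of 5 in both windows (median log2 fold change 0.75 and 1.09) and smooth muscle markers in 3 of 5 in ZT0-12. The part of these cells in the result was not tested. Leaving out the libraries numbered 1 left no rise in ZT0-12, beside 4 at an unadjusted p under 0.05, and 6 rose in ZT14-22. Without those numbered 2, 17 and 15 rose.

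In iWAT the direction differed by gene and by window. In ZT0-12 7 of 33 members rose and 7 fell, beside 25.6% and 23.8% of all genes, and in ZT14-22 2 rose and 15 fell, beside 29.4% and 26.7%. The rises in both windows and the falls in ZT0-12 were no more frequent than among all genes. Hsd17b4, the other peroxisomal bifunctional enzyme, had 354, 449 and 527 CPM in ALF and 206, 252 and 324 CPM in TRF in ZT14-22, with no overlap between the groups. It fell by 0.79 ± 0.15 (adjusted p = 8.31e-05), after -0.53 ± 0.12 (adjusted p = 0.00122) in ZT0-12. Cpt1a had 121, 173 and 197 CPM in ALF and 67.7, 96.2 and 126 CPM in TRF, a change of -0.77 ± 0.13 (adjusted p = 3.06e-05), and the thiolase Acaa1b changed by -1.29 ± 0.26 (adjusted p = 0.000193) in ZT14-22 and -0.95 ± 0.22 (adjusted p = 0.000992) in ZT0-12. Ehhadh went the other way in ZT0-12, with 32.1, 53.5 and 64.6 CPM in ALF and 50.6, 73.4 and 138 CPM in TRF, higher at all 7 clock times by 0.53 ± 0.11 (adjusted p = 0.000276). Without the 5 ALF libraries that resembled eWAT, 7 members rose and 3 fell in ZT0-12 and 2 rose and 13 fell in ZT14-22. Skeletal muscle fibre markers rose in 11 of 12 in ZT14-22, summing to 32.7, 154 and 1230 CPM in ALF and 20.3, 3280 and 21000 CPM in TRF. White adipocyte markers fell in 6 and rose in 1 of 10 in that window, summing to 33500, 40000 and 43200 CPM in ALF and 21200, 30600 and 37600 CPM in TRF, and macrophage markers rose in 3 of 5. Brown adipocyte markers rose in 4 and fell in 1 of 6 in each window, with a median of 1.27 and 1.00, summing to 21.7, 41 and 64.3 CPM in ALF and 56, 72.1 and 526 CPM in TRF in ZT0-12. The part of these cells in the result was not tested. No member passed in either window without the libraries numbered 1, beside 6 and 12 at an unadjusted p under 0.05.

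In liver, beta-oxidation genes were lower in TRF during the hours with food. In ZT14-22 22 of 34 members fell and none rose, beside 14.3% of all genes lower. The median change was -0.40 and 33 of 34 were negative, whereas 49.2% of all genes were positive. Acaa1b had 497, 1355 and 2282 CPM in ALF and 260.2, 426 and 836 CPM in TRF. The highest TRF library lay below the ALF median. Its change was -1.66 ± 0.29 (adjusted p = 0.000102), with TRF lower at each of 5 clock times. Among the thioesterases, Acot3 had 0.108, 17.9 and 57.3 CPM in ALF and 0.282, 0.757 and 1.66 CPM in TRF and changed by -4.33 ± 0.80 (adjusted p = 0.000182). Acot1 had 7.96, 27.2 and 58.2 CPM in ALF and 4.32, 6.75 and 18.1 CPM in TRF, a change of -1.70 ± 0.35 (adjusted p = 0.000485). The ALF libraries spanned a wide range, and for both genes every TRF library lay below the ALF median. Of the genes of the mitochondrial spiral, Hadh, the short-chain hydroxyacyl-CoA dehydrogenase, changed by -0.66 ± 0.13 (adjusted p = 0.000487) and Acadm by -0.58 ± 0.12 (adjusted p = 0.000893), and of the shuttle Slc25a20 changed by -0.62 ± 0.14 (adjusted p = 0.0011) and Cpt1a by -0.43 ± 0.14 (adjusted p = 0.0213). Hadha, named after its values were seen, was at -0.04 ± 0.08 and did not pass (adjusted p = 0.769). Hepatocyte markers went 2 up and 2 down of 7 in ZT14-22 and summed to 89300, 115000 and 125000 CPM in ALF and 89300, 107000 and 124000 CPM in TRF. Erythroid markers fell in 3 of 5 (median -0.81), and of the markers tested 2 of 6 white adipocyte, 2 of 4 brown adipocyte and 2 of 2 enterocyte genes fell. The other 3 lists were tested only in part in liver, the enterocyte list in 2 of its 6 genes. Whether the genes that fell mark such cells in liver was not tested, nor was their part in the result. Leaving out the libraries numbered 1 left 2 falls (Acaa1b and Crat), and leaving out those numbered 2 left 13.

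In ZT0-12 liver had 1 member higher and 4 lower, beside 3.62% and 4.02% of all genes. Crot was the one that rose, with 300.1, 678 and 953 CPM in ALF and 470.4, 871 and 1801 CPM in TRF, higher at all 7 clock times, a change of 0.53 ± 0.14 (adjusted p = 0.0125). Acaa1b had 248, 975 and 1976 CPM in ALF and 161, 441 and 667 CPM in TRF and changed by -1.05 ± 0.25 (adjusted p = 0.00693). Acot3 changed by -2.90 ± 0.68 (adjusted p = 0.00567), Acot4 by -0.92 ± 0.27 (adjusted p = 0.031) and Hadh by -0.43 ± 0.11 (adjusted p = 0.0131), so that 3 of the 4 falls were of peroxisomal enzymes or thioesterases. None of these 5 passed without the libraries numbered 1 or without those numbered 2.

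In pancreas, 9 of 32 members rose and none fell in ZT0-12, beside 0.692% of all genes higher. The median change was 0.35, and 28 of 32 were positive, beside 50.1% of all genes. Eci2 had 16.8, 22.1 and 29.1 CPM in ALF and 24.8, 35.1 and 46.2 CPM in TRF, higher at all 7 clock times, a change of 0.63 ± 0.12 (adjusted p = 0.00626). The TRF median lay above the highest ALF library. Acadl had 13.4, 22.1 and 44.7 CPM in ALF and 21.6, 34 and 83.5 CPM in TRF and changed by 0.83 ± 0.18 (adjusted p = 0.0161), and Cpt1a by 0.60 ± 0.15 (adjusted p = 0.0337). Hadha and Hadhb, named here for their shared start region and after their values were seen, changed by 0.54 ± 0.14 (adjusted p = 0.0414) and 0.69 ± 0.19 (adjusted p = 0.0448). In ZT14-22 no member passed in edgeR or DESeq2, 4 had an unadjusted p under 0.05, all lower, and the median change was -0.18. Pancreatic acinar markers summed to 64900, 436000 and 942000 CPM in ALF and 57100, 167000 and 630000 CPM in TRF in ZT0-12, none of the 6 passing, and white adipocyte markers rose in 1 of 10, with sums of 105, 242 and 587 CPM in ALF and 79.7, 446 and 3710 CPM in TRF. Their part in the result was not tested. Without the libraries numbered 1, or those numbered 2, no member passed in ZT0-12. At an unadjusted p under 0.05, 2 rose and 3 fell without the former and 18 rose and none fell without the latter.

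In adrenal, 15 of 33 members rose and 1 fell in ZT0-12, beside 9.07% of all genes higher. Ehhadh had 11.6, 19.8 and 33.1 CPM in ALF and 24.1, 40.7 and 62.5 CPM in TRF, a change of 0.95 ± 0.17 (adjusted p = 0.000296), with TRF higher at 6 of 7 clock times. Cpt1a had 365, 419 and 508 CPM in ALF and 383, 499.9 and 584 CPM in TRF, a smaller change of 0.23 ± 0.06 (adjusted p = 0.00735). With GC offsets 4 members passed (Ehhadh, Cpt1a, Eci2 and Acot4, the last at 0.80 ± 0.23 before the offsets), without ZT0 and ZT22 5, without the libraries numbered 2 4, and without those numbered 1 none, beside 10 at an unadjusted p under 0.05. In ZT14-22 no member passed in edgeR, 3 had an unadjusted p under 0.05 and DESeq2 called 1. Adrenal cortex and macrophage markers each fell in 1 of 5 and neuron markers rose in 2 of 5 in ZT0-12. Brown adipocyte markers rose in 1 of 6, and white adipocyte markers rose in 1 and fell in 1 of 10. Hepatocyte markers, of which 0 of 7 passed, varied widely between libraries. They summed to 0.847, 90.2 and 4980 CPM in ALF and 1.3, 127 and 5490 CPM in TRF. The part of these cells in the result was not tested.

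In heart, more members fell than rose in TRF in both windows. In ZT0-12 15 of 33 members fell and 3 rose, beside 8.98% and 7.36% of all genes, and 12 fell and 1 rose in ZT14-22, beside 10.7% lower and 9.88% higher. The falls of Acadm and Slc25a20 were small. Acadm had 1930, 2108 and 2314 CPM in ALF and 1614, 1825 and 2153 CPM in TRF in ZT0-12 and 2141, 2347 and 2601 CPM in ALF and 1814, 1912 and 2167 CPM in TRF in ZT14-22. It was lower in TRF at all 7 and all 5 clock times, and the ranges overlapped, in ZT14-22 only at their edges. The changes were -0.21 ± 0.03 (adjusted p = 2.04e-05) and -0.27 ± 0.04 (adjusted p = 7.17e-06), and Slc25a20 changed by -0.18 ± 0.03 (adjusted p = 0.000282) in ZT0-12. The rises of ZT0-12 were Ehhadh, Acot3 and Acot4. Ehhadh had 18.9, 25.5 and 32.5 CPM in ALF and 13.3, 39.4 and 88.2 CPM in TRF, a change of 0.62 ± 0.17 (adjusted p = 0.00805), the TRF range reaching both below and above that of ALF. None of these 3 rises passed without the libraries numbered 1 or without those numbered 2. Smooth muscle markers rose in 2 of 5 in ZT0-12 and in 4 of 5 in ZT14-22, macrophage markers in 1 and 3 of 5, and cardiomyocyte markers went 1 up and 2 down, then 2 up and 1 down, of 7. Their part was not tested. With the libraries numbered 1 left out no member fell in ZT0-12 and 1 fell in ZT14-22, beside 8 and 8 at an unadjusted p under 0.05, and without those numbered 2 9 and 3 fell. Without ZT0 and ZT22 5 fell in ZT14-22.

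Along the gut, Acot1 and Acot2 rose in ZT0-12 in stomach, jejunum and ileum. In jejunum Acot1 had 5.68, 18.1 and 44.8 CPM in ALF and 6.7, 46.1 and 95.1 CPM in TRF, higher at all 7 clock times, a change of 1.09 ± 0.18 (adjusted p = 8.68e-05). In stomach it had 6.18, 8.87 and 13.8 CPM in ALF and 8.58, 18 and 32.1 CPM in TRF, a change of 0.95 ± 0.15 (adjusted p = 0.00152). In ileum it had 1.6, 2.63 and 6 CPM in ALF and 2.15, 6.76 and 30.6 CPM in TRF, a change of 1.56 ± 0.33 (adjusted p = 0.0189). In all 3 segments the TRF median lay above the ALF median and the ranges overlapped. Acot2 changed by 0.58 ± 0.13 (adjusted p = 0.000981), 0.53 ± 0.12 (adjusted p = 0.0217) and 0.93 ± 0.20 (adjusted p = 0.0264) in the same order. In stomach these were the 2 members that rose, beside 0.735% of all genes, and in ileum 3 rose, beside 0.213%, Acsl1 being the third, which did not pass with GC offsets. In ileum 29 of 33 members were positive in ZT0-12, beside 49.8% of all genes, with a median of 0.21. Of the 33, 13 had an unadjusted p under 0.05, all higher. In jejunum 8 rose and 1 fell, beside 16.6% of all genes higher, among them Cpt1a by 0.30 ± 0.07 (adjusted p = 0.00191) and Acaa1b by 0.57 ± 0.18 (adjusted p = 0.0158), the latter not passing with GC offsets. In ZT0-12 the jejunum counts were 3 up and 1 down without the libraries numbered 1 and 4 up and 0 down without those numbered 2, those of stomach 0 up and 0 down without the libraries numbered 1 and 0 up and 0 down without those numbered 2, and those of ileum 0 up and 0 down without the libraries numbered 1 and 6 up and 0 down without those numbered 2. White adipocyte markers, at sums of 157, 244 and 596 CPM in ALF and 187, 575 and 870 CPM in TRF, rose in 4 of 10 in ileum in ZT0-12, and in 5 of 10 in jejunum, where smooth muscle markers rose in 5 of 5. Their part was not tested.

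In duodenum falls outnumbered rises, 5 against 1 of 34 members in ZT0-12 (all genes 19.6% lower) and 4 against 0 in ZT14-22 (7.08%). Most members were nevertheless slightly positive in ZT0-12 (22 of 34, median 0.07), against 6 of 34 in ZT14-22 (median -0.18). Of all genes 53.7% and 50.5% were positive. Acads, the short-chain dehydrogenase, had 52.6, 77.9 and 117 CPM in ALF and 26.1, 52.4 and 81.9 CPM in TRF in ZT0-12, lower at all 7 clock times. Its changes were -0.62 ± 0.12 (adjusted p = 0.000152) and -0.62 ± 0.14 (adjusted p = 0.00661), and with GC offsets -0.20 (adjusted p = 0.0528) and -0.32 (adjusted p = 0.032). Etfb, the other subunit of the electron transfer flavoprotein, changed by -0.60 ± 0.11 (adjusted p = 0.000122) and -0.51 ± 0.13 (adjusted p = 0.0115), and Acaa1a by -0.54 ± 0.13 (adjusted p = 0.00212) and -0.52 ± 0.16 (adjusted p = 0.0263). In ileum 4 of 33 members fell in ZT14-22 and none rose, beside 9.01% of all genes lower, Acads with a change of -0.62 ± 0.16 (adjusted p = 0.0116) and Acaa1a with -0.66 ± 0.19 (adjusted p = 0.018). Of the duodenum members fewer fell in ZT0-12 than the share among all genes. The counts there were 0 up and 7 down without the libraries numbered 1 and 9 up and 3 down without those numbered 2 in ZT0-12 and 0 up and 0 down without the libraries numbered 1 and 0 up and 1 down without those numbered 2 in ZT14-22, and in ileum 0 up and 0 down without the libraries numbered 1 and 0 up and 1 down without those numbered 2 in ZT14-22. Duodenum and ileum had Acads and Acaa1a lower in ZT14-22, while stomach had them higher. Over all genes the fold change of that window also followed GC content in opposite directions. Spearman's rho was -0.54 in duodenum, -0.379 in ileum and 0.636 in stomach. Beyond the GC offsets, the part of this trend in the opposite calls was not tested. In stomach Acaa1a had 38.5, 70.3 and 108 CPM in ALF and 60.7, 105 and 154 CPM in TRF, a change of 0.62 ± 0.14 (adjusted p = 0.00201), and Acads changed by 0.52 ± 0.14 (adjusted p = 0.00538) and Etfb by 0.59 ± 0.19 (adjusted p = 0.0216), the last 2 not passing with GC offsets. Stomach had 4 members up and 6 down in that window, beside 16.1% and 12.2% of all genes, and 1 up and 1 down with GC offsets. Jejunum had 4 up and 4 down, beside 16.8% and 14.9%, and 3 up and none down with GC offsets. Acaa1b was up in jejunum at 0.85 ± 0.22 (adjusted p = 0.0026) and did not pass with GC offsets. In ZT14-22 stomach had 3 up and 9 down without the libraries numbered 1 and 0 up and 0 down without those numbered 2, and jejunum 1 up and 0 down without the libraries numbered 1 and 3 up and 0 down without those numbered 2. Pancreatic acinar markers rose in 3 of 5 in duodenum in ZT14-22, summing to 23.6, 1270 and 4650 CPM in ALF and 1070, 3780 and 32300 CPM in TRF, and skeletal muscle fibre markers in 10 of 10 in stomach. In the same hours erythroid markers rose in 4 of 5 in stomach and in jejunum, and white adipocyte markers in 3 of 10 in stomach and 7 of 10 in jejunum. Their part was not tested.

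The other tissues had few calls. In whole hypothalamus 5 members rose and 4 fell in ZT0-12, beside 7.93% and 9.28% of all genes, and with GC offsets none rose and 1 fell. In ZT14-22 Abcd3 and Hadhb rose and Acaa1a and Etfb fell there, beside 5.32% and 9.58%, with 1 rise and no fall left by GC offsets. Without the libraries numbered 1 no member passed in either window, and without those numbered 2 1 fell in ZT0-12 and none passed in ZT14-22. Muscle had 2 rises of 31 members in ZT0-12, beside 3.03% of all genes, and 1 rise and 2 falls in ZT14-22, beside 8.93% and 8.79%. None passed without the libraries numbered 1 or without those numbered 2. Its Acadm had 516, 561 and 677 CPM in ALF and 396, 479 and 535 CPM in TRF in ZT14-22, a change of -0.26 ± 0.07 (adjusted p = 0.00929). Macrophage markers rose in 5 of 5 in muscle in that window (median 0.67) and smooth muscle markers in 2 of 5, and their part was not tested. Lung had 1 call in ZT0-12 (all genes 0.0265% higher), Cpt1a at 0.44 ± 0.09 (adjusted p = 0.0483), which did not pass with GC offsets or without the lung libraries over 100 M counts. Spleen had 1 call in ZT14-22, Cpt1b at -0.69 ± 0.18 (adjusted p = 0.0143), beside 2.9% of all genes lower and 7.06% higher. No spleen member passed without the libraries numbered 1 or without those numbered 2, while 2 rose and 1 fell with GC offsets and 4 rose and 1 fell in DESeq2. Brown fat, amygdala, the dentate gyrus, the arcuate (ARC), dorsomedial (DMH) and suprachiasmatic (SCN) nuclei had no member called by edgeR or DESeq2. Few or no genes of any kind passed there. Over all genes tested edgeR called 0 in both windows in brown fat, amygdala, ARC and SCN. It called 7 in ZT0-12 and 3 in ZT14-22 in the dentate gyrus, and 0 and 1 in DMH. Of the 196 member tests a window in these tissues, 7 in ZT0-12 and 15 in ZT14-22 had an unadjusted p under 0.05. In the suprachiasmatic nucleus 23 of 32 members were positive in ZT14-22, beside 44.9% of all genes, with a median of 0.30. Of these 6 had an unadjusted p under 0.05. In brown fat the spread between libraries was wide, with Ehhadh at 31.9, 166 and 625 CPM in ALF and 30.1, 103 and 587 CPM in TRF in ZT0-12 and a change of 0.07 ± 0.45.

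The effect of TRF differed between the windows for 5 of 725 pairs, all lower in ZT14-22. This share was no larger than the 0.895% over all tests. Liver Crot was the one member called in opposite directions, with 178, 591 and 837 CPM in ALF and 167, 347 and 582 CPM in TRF in ZT14-22, a change of -0.63 ± 0.16 (adjusted p = 0.00434) against 0.53 ± 0.14 in ZT0-12. The difference was -1.16 ± 0.21 (adjusted p = 0.000847). Liver Ehhadh changed by 0.01 ± 0.16 in ZT0-12 and -0.76 ± 0.19 (adjusted p = 0.003) in ZT14-22, a difference of -0.76 ± 0.25 (adjusted p = 0.0483). For liver Slc22a5, the carnitine importer, neither window passed alone, at 0.26 ± 0.13 and -0.40 ± 0.16, and the difference was -0.66 ± 0.21 (adjusted p = 0.042). In kidney medulla Acsl1 changed by 0.43 ± 0.08 and -0.18 ± 0.09, a difference of -0.61 ± 0.12 (adjusted p = 0.0462), and in stomach Crot changed by 0.23 ± 0.08 and -0.33 ± 0.10, a difference of -0.56 ± 0.13 (adjusted p = 0.0394). None of the 5 passed without the libraries numbered 1 or without those numbered 2, where 46 of 724 and 86 of 725 pairs had an unadjusted p under 0.05. DESeq2 called 13 pairs, beside 1.54% of all tests. Kidney medulla Acsl1 also did not pass with GC offsets (adjusted p = 0.083), with the replicate block (0.0559) or without the libraries in doubt (0.0806), nor did liver Ehhadh with the replicate block (0.0519). In ileum no member passed, but all 33 had a smaller change in ZT14-22 than in ZT0-12 (median difference -0.35). In pancreas 31 of 32 did (median -0.59). At an unadjusted p under 0.05 there were 15 and 18. Of all genes 50.1% in ileum and 51.2% in pancreas had a larger change in ZT14-22. Groups without any overlap were seen in no pair in ZT0-12 and in 6 in ZT14-22, 5 in eWAT (Cpt2, Acadvl, Hadh, Eci1 and Acot4, all higher in TRF) and Hsd17b4, lower, in iWAT. The share of all genes without overlap was not computed, so it is unknown whether such separation was more frequent among members. By the different measure of calls, 23.7% of all genes were higher in eWAT and 26.7% lower in iWAT in ZT14-22.

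A 24 h rhythm was tested as a cosine and a sine in each feeding group, with the amplitude (mean to peak, log2) and peak hour from limma on log2 CPM. In ALF 91 of 725 pairs were rhythmic (12.6%), beside 11.7% of all genes, and in TRF 260 (35.9%), beside 27.4%. The rhythm differed between the feeding groups in 35 pairs, of 15 members in 12 tissues, beside 1.74% of all tests, and in 32 of the 35 the amplitude was larger in TRF. The other 3 were Acsl1 in kidney cortex and kidney medulla and Cpt1a in lung. By role the rhythmic pairs in ALF and TRF were 18 and 53 for entry, 17 and 60 for the mitochondrial spiral, 15 and 33 for unsaturated fatty acids, 6 and 21 for electron transfer, 16 and 49 for the peroxisomal genes, and 19 and 44 for the thioesterase group. Acot2 was rhythmic in TRF in 14 tissues, Cpt1a in 13, and Acot1 and Eci2 in 12. Cpt1a and Acot1 differed between the groups in 6 tissues each, Ehhadh and Acsl1 in 4. Without the libraries numbered 1 the 260 fell to 90 and the 35 to 3, and without those numbered 2 to 168 and 6.

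In ileum 1 of 33 members was rhythmic in ALF and 30 in TRF, each group tested on its own, beside 3.65% and 45.5% of all genes. All 30 peaked between 4.86 and 9.19 h after lights on, 23 of them before 8 h. Peak hours were summarised for members only, here and below, with no share over all genes. Acot1 in ileum had a TRF amplitude of 1.13 ± 0.21 and peaked at 4.86 ± 0.70 h. At ZT4 its TRF mean was 25.4 CPM (20.2 and 30.6), against 2.20 CPM in ALF (2.06 and 2.35), but at ZT8 the TRF libraries stood at 2.15 and 22.6 CPM. One of the ZT4 values belongs to the library that resembled duodenum, and without the libraries in doubt 27 members were rhythmic. In pancreas none of 32 was rhythmic in ALF and 19 were in TRF, beside 1.42% and 17.8%. In ALF 5 of the 32 had an unadjusted p under 0.05. All 19 peaked before ZT12, Acot1 at 5.49 ± 1.00 h and Acot2 at 5.56 ± 0.60 h. In stomach 1 of 33 was rhythmic in ALF and 17 in TRF, beside 2.9% and 21.4%, all 17 peaking between 6.75 and 10.3 h. By the direct test of TRF against ALF the rhythm differed for far fewer members: Cpt1a in ileum (adjusted p = 0.0269, all genes 0.048%), Acot1 and Acot2 in pancreas (both 0.0207, all genes 0.0477%) and Acot1 in stomach (0.0241, all genes 0.371%). At an unadjusted p under 0.05 the direct test gave 19, 18 and 11 members. Of these 4 calls none passed without the libraries numbered 1, and Acot1 in pancreas was the one that passed without those numbered 2. In jejunum 9 of 34 were rhythmic in ALF and 27 in TRF, beside 14.2% and 55.8%. The TRF counts without the libraries numbered 1 were 8 in ileum, 0 in pancreas (10 at an unadjusted p under 0.05), 11 in stomach and 17 in jejunum, and without those numbered 2 they were 27, 17, 5 and 24.

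**Figure D3:**
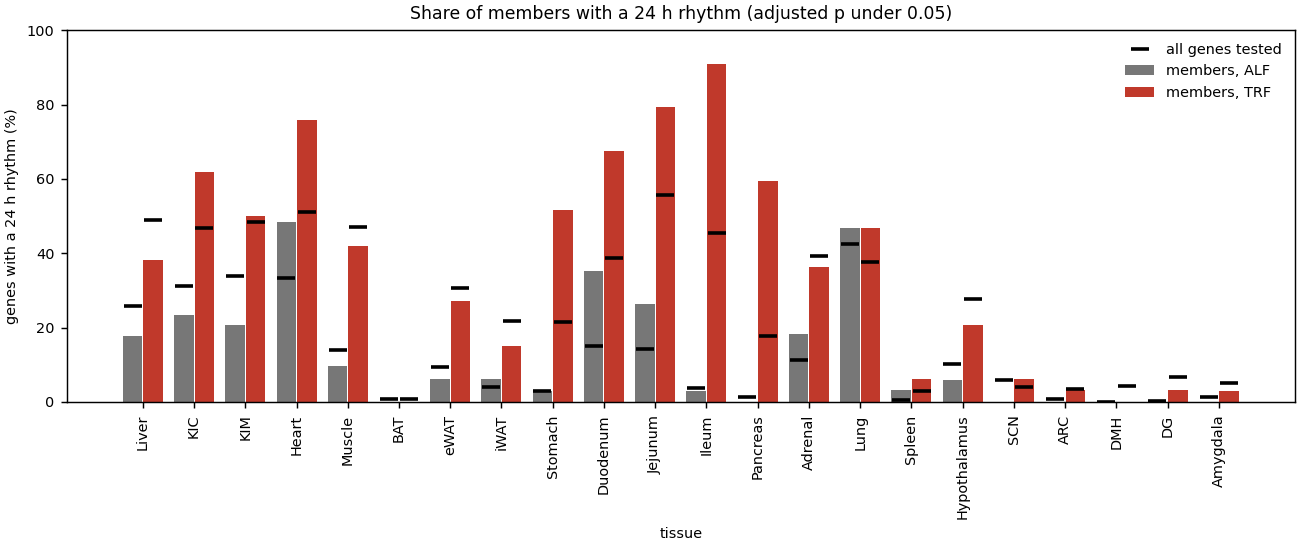
Share of members (bars, %) with a 24 h rhythm at an adjusted p under 0.05 in ALF and TRF in each tissue, with a dash at the share of all genes tested. The widest gaps between the bars are in ileum (1 and 30 of 33 members) and pancreas (0 and 19 of 32).

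In heart 16 of 33 members were rhythmic in ALF and 25 in TRF, beside 33.4% and 51.2%, and 7 differed between the groups, beside 5.18%. Ehhadh had an amplitude of 0.24 ± 0.12 in ALF and 0.96 ± 0.12 in TRF (adjusted p of the difference 0.00017). By clock time its TRF mean rose from 13.8 CPM at ZT0 to 72.7 CPM at ZT6 and stood at 16.9 CPM at ZT18, while the ALF means of Ehhadh stayed between 19.2 and 29.8 CPM. Cpt1a in heart went from 0.17 ± 0.04 to 0.47 ± 0.04 (adjusted p = 0.00022), and its peak from 6.48 ± 0.88 h to 8.52 ± 0.32 h. In liver 6 of 34 were rhythmic in ALF and 13 in TRF, beside 25.7% and 49.0%, shares below those of all genes, and 8 differed, beside 8.71%. Liver Crot had an amplitude of 0.61 ± 0.10 and a peak at 1.37 ± 0.63 h in ALF, and 1.14 ± 0.10 and 4.96 ± 0.34 h in TRF (adjusted p = 2.48e-05). Its TRF mean climbed to 1517 CPM at ZT6 (1233 and 1801) and dropped to 207 CPM at ZT16, whereas ALF Crot went from 930 CPM at ZT2 to 269 CPM at ZT14. Liver Cpt1a went from 0.30 ± 0.07 to 0.86 ± 0.07 (adjusted p = 0.000318). In jejunum 6 members differed, beside 6.33%, and Eci2 went from 0.18 ± 0.04 to 0.51 ± 0.04 (adjusted p = 0.000562). Without the libraries numbered 1 none of the differences in heart, liver and jejunum passed, and without those numbered 2 2 in heart, 2 in liver and none in jejunum did. The amplitude was smaller in TRF for Cpt1a in lung, from 0.36 ± 0.06 to 0.15 ± 0.06.

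**Figure D4:**
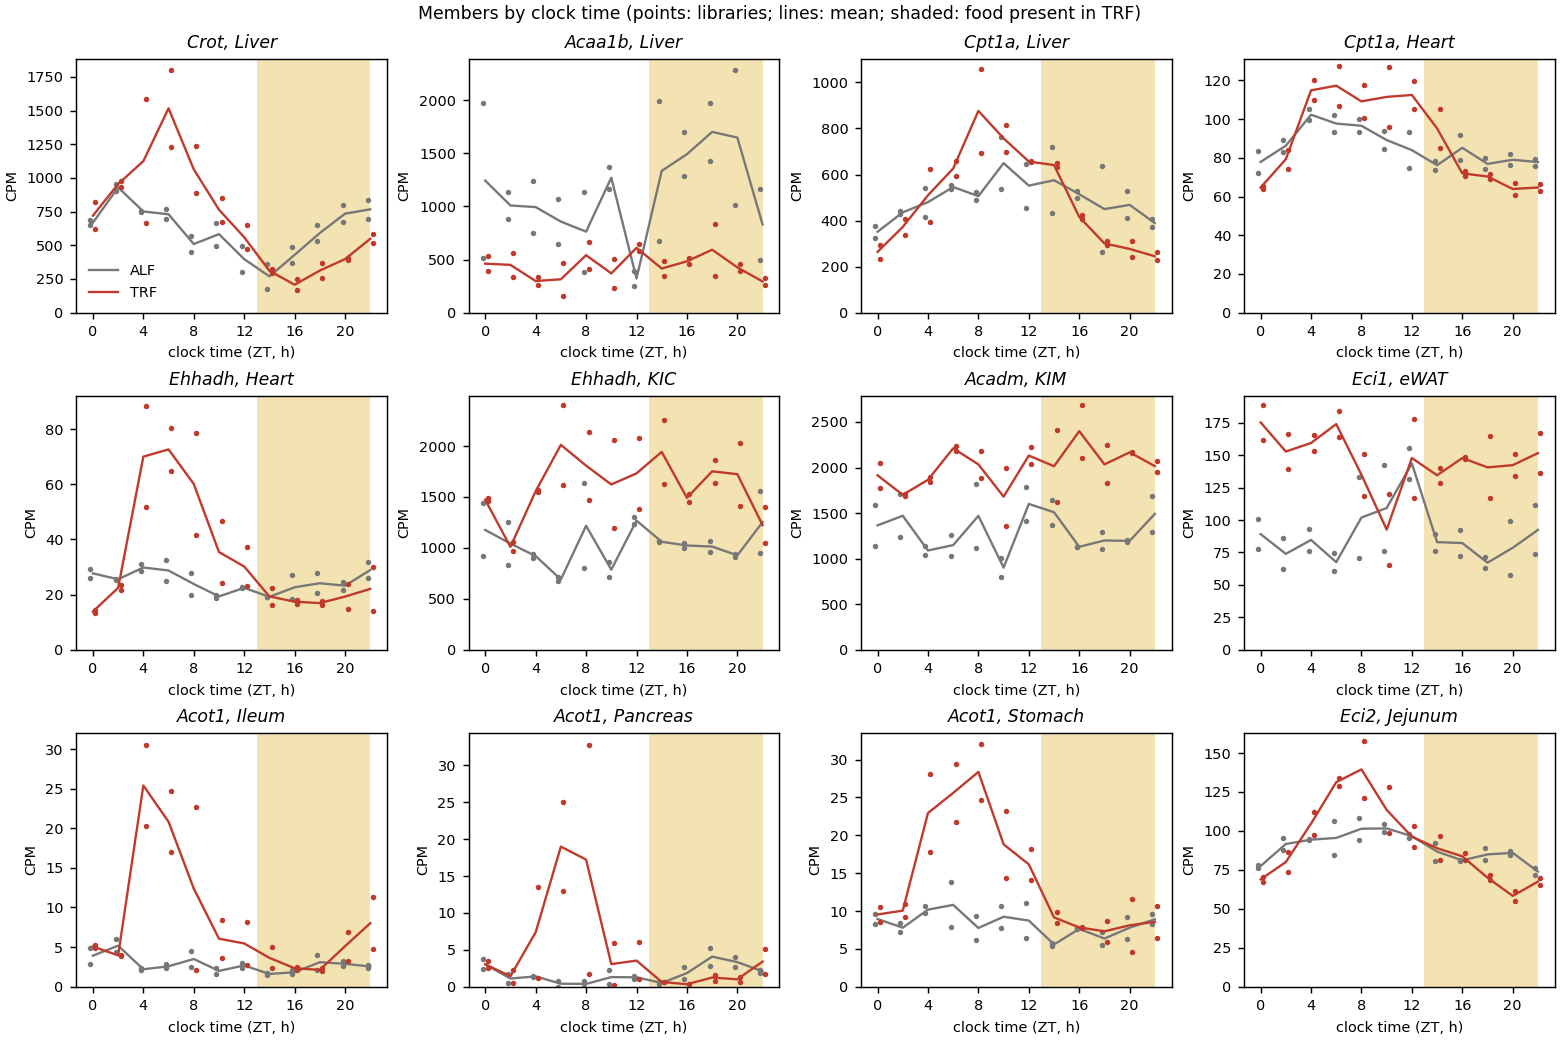
CPM by clock time (ZT, h) for 12 pairs of member and tissue, with points for libraries, lines for their mean in ALF and TRF, and shading for the hours with food in TRF. In liver Crot and heart Ehhadh the TRF line lies above ALF at ZT6 and below it at ZT16.

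Most member peaks in TRF fell in the light phase. Of the 260 rhythmic pairs in TRF 198 (76.2%) peaked before ZT12, with a median of 8.84 h. Of the 91 in ALF 48 (52.7%) did, with a median of 11.5 h. Medians of peak hours were taken from 0 to 24 h and not round the clock. ALF peaks were spread over the day (10, 16, 22, 15, 20 and 8 in bins of 4 h from ZT0), so their median is no typical hour. These sets hold different pairs, and the difference was not tested. The share of all rhythmic genes that peaked before ZT12 was not computed. Within TRF the tissues were not alike: heart, kidney cortex and kidney medulla members had median peaks at 13.1, 12.9 and 12.7 h, after those of pancreas (5.56 h), lung (6.5 h), ileum (6.97 h) and stomach (7.84 h). By member, TRF peaks were earliest for Acot1 (median 5.20 h over 12 tissues), Crot (6.84 h over 11), Acot2 (7.12 h over 14) and Ehhadh (7.17 h over 7, all between 5.95 and 8.11 h), and latest for Pex11a, a factor of peroxisome division (16.7 h over 10). In 71 pairs rhythmic under both regimes, the peak in TRF was 0.69 h later by the median (quartiles -0.94 and 2.27 h), 45 later and 26 earlier, with a median SE of 1.20 h on a single shift. Shifts of several SEs included Acsl1 in kidney cortex, from 23.2 ± 0.59 h to 5.37 ± 0.64 h, later by 6.17 ± 0.87 h, and in kidney medulla, from 21.6 ± 0.46 h to 2.01 ± 0.52 h. Acot1 peaked later in TRF in heart (4.76 ± 1.14 h), lung (4.16 ± 0.74 h), kidney medulla (5.19 ± 1.22 h) and kidney cortex (4.08 ± 1.51 h), and Crot in liver (3.59 ± 0.72 h). Slc22a5 in liver moved the other way, from 15.8 ± 1.12 h to 10.4 ± 0.54 h. The shift of Pex11a in heart, named after its values were seen, was -7.56 ± 1.42 h, from 0.887 ± 1.20 h to 17.3 ± 0.76 h, and the median over the 12 members rhythmic under both regimes in heart was -0.94 h, with Acadm (-4.03 ± 1.55 h), Hadh (-3.91 ± 1.28 h) and Slc22a5 (-3.62 ± 1.31 h) also earlier. The amplitude was larger in TRF in 51 of the 71. Among 37 pairs with an amplitude of at least 0.25 in both groups the median shift was 1.35 h, and without the libraries numbered 1 the median over all pairs was 2.77 h.

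**Figure D5:**
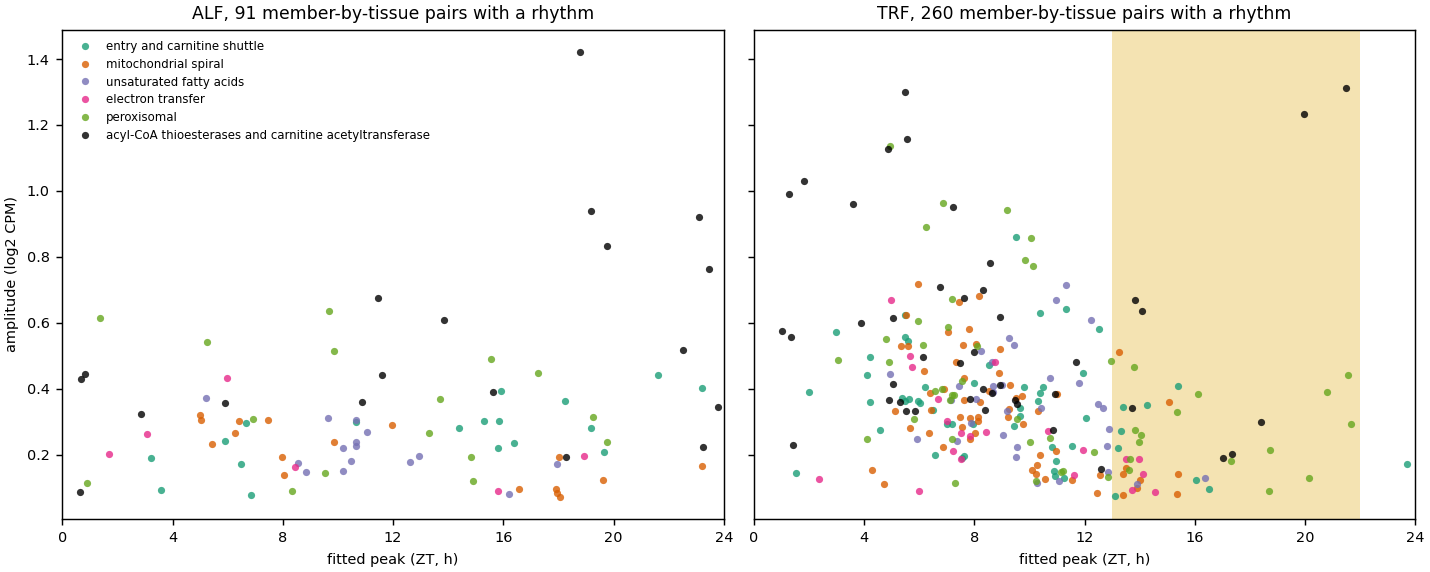
Fitted peak (x axis, hours after lights on) and amplitude (y axis, log2 CPM) of each rhythmic pair of member and tissue, coloured by role, with ALF on the left (91 pairs) and TRF on the right (260 pairs), shaded where TRF mice had food. In TRF 198 of the points lie before ZT12.

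A further 66 genes of the pathway were followed in the same fits. Over all genes tested 5.35% were higher and 5.61% lower in ZT0-12, and 7.37% and 7.14% in ZT14-22. Other mitochondrial genes (20) rose in 40 and fell in 16 of 427 tests in ZT0-12, and rose in 37 and fell in 38 in ZT14-22. Fabp4, a fatty acid binding protein of adipocytes and macrophages, rose in 7 tissues in ZT0-12, and Acacb, whose product malonyl-CoA inhibits CPT1, rose in 5 tissues in each window. Other peroxisomal genes (24) rose in 21 and fell in 28 of 473 tests in ZT0-12 and rose in 28 and fell in 46 in ZT14-22, Acox3 and Pex16 falling in 5 tissues each. Uptake genes (10) rose in 19 and fell in 10 of 192 tests, then rose in 18 and fell in 15, the fatty acid receptor Cd36 falling in 5 tissues in ZT14-22. Regulators (12), among them the PPAR genes, rose in 19 and fell in 18 of 256 tests, then rose in 20 and fell in 12. The regulator rises of ZT14-22 and the peroxisomal counts of ZT0-12 lay near the shares over all genes. Acss1, the mitochondrial acetyl-CoA synthetase, fell in 6 tissues in ZT14-22. In liver in ZT14-22 25 of the 59 tested fell, beside 14.3% of all genes, and 2 rose. In eWAT in that window 36 of 59 rose, beside 23.7%, and 6 fell. These were the directions of the 34 members in those tissues. In kidney cortex 6 of 60 rose in ZT14-22, beside 2.95%, and 1 fell, whereas 1 rose in ZT0-12, beside 1.16%.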

How the data were processed

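The deposited table holds expected counts per gene symbol, not normalized by the authors, with 1 column per library. Of its values 29.62% are not whole but end in a fraction. Per the submitters' processing notes the tools were CASAVA 1.8, FastQC 0.11.8, STAR 2.5.3a and HOMER 4.10 with mm10/GRCm38, and RNA libraries were stranded and poly(A) selected per the labels' protocols. How fractional counts arose is not given in the sources used here. Of 26 row names that read as dates, 4 were duplicated and their rows left out. The 1677 sequencing runs of the labels are deposited as 1035 columns, 1 per library, whose values were rounded to whole counts. Groups came from the titles, and labels of ZT24 and later were read as clock times on a 24 h day.

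Each tissue was fitted alone in edgeR 4.0.16 (R 4.3.3): filterByExpr, TMM, quasi-likelihood test, a term for each clock time and TRF effects for ZT0-12 and ZT14-22, Benjamini-Hochberg adjustment within tissue and contrast. A cosine and sine of 24 h tested rhythms, with amplitude and peak from limma 3.58.1 on log2 CPM (prior count 2). Alternatives were DESeq2 1.42.0, its size factors, no filter, GC offsets (lowess, span 0.3, GC known for 98.37% of genes), a replicate block, edge times left out, 18 libraries left out, and each replicate number left out. The scripts were tested on simulated data. Same-numbered libraries of ALF and TRF deviated together in 83 of 245 comparisons (r above 0.1; range -0.804 to 0.762) and apart in 58 (r below -0.1), so they were not treated as pairs. Library totals set the precision of low members such as Acot3. The members and all lists were chosen with earlier results of these data known. Genes named with values were those called in the most tissues in each role group, up to 3 per tissue and window with the smallest adjusted p, a log2 change of at least 0.5 and a mean of at least 5 CPM, those of opposite directions, and up to 3 per tissue of the largest amplitude.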

Additional observations from a re-analysis of the deposited data

Results flagged for a closer look

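For 5 of 725 pairs the effect of TRF in ZT14-22 differed from that in ZT0-12 by the test of the difference in edgeR, each lower in ZT14-22 (log2, n = 14 and 10 libraries a feeding group). This share was no larger than the 0.895% over all tests. In liver the difference was -1.164 ± 0.21 for Crot, the peroxisomal carnitine octanoyltransferase, -0.7643 ± 0.25 for Ehhadh and -0.6607 ± 0.21 for the carnitine importer Slc22a5. In stomach it was -0.5576 ± 0.13 for Crot, and in kidney medulla -0.6107 ± 0.12 for Acsl1. The adjusted p of Acsl1 was 0.083 with GC offsets, 0.0559 with the replicate block and 0.0806 without the libraries in doubt, and that of liver Ehhadh was 0.0519 with the replicate block. None of the 5 passed without the libraries numbered 1, where that of liver Crot was 0.313, or without those numbered 2, where it was 0.0611.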

How the results depend on the processing

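All 135 calls in ZT0-12 and all 120 in ZT14-22 kept their direction under every alternative run. Each alternative reused libraries behind the calls and only called pairs were checked, so this is no independent support. Among all duodenum members in ZT0-12, 0 rose and 7 fell without replicate 1, whereas 9 rose and 3 fell without replicate 2. Leaving out either replicate number, which removes about every other library, cut the counts. Without replicate 1 or 2 the pairs called came to 11 to 67 in place of 135 in ZT0-12 (3 to 45 of 97 higher, 8 to 22 of 38 lower) and 23 to 51 in place of 120 in ZT14-22 (10 to 20 of 47 higher, 13 to 31 of 73 lower). The difference between windows went from 5 pairs to 0 to 0, rhythms in ALF from 91 to 22 to 29, rhythms in TRF from 260 to 90 to 168, rhythms that differed from 35 to 3 to 6, and the median peak shift from 0.69 h to 1.572 to 2.77 h. By tissue the ranges were 2 to 13 of 22 falls in liver in ZT14-22, 0 to 0 of 15 and 0 to 0 of 12 rises in kidney cortex, 0 to 0 of 7 in kidney medulla in ZT0-12, 0 to 17 of 18 and 6 to 15 of 16 rises in eWAT, 0 to 0 of 9 in pancreas, 0 to 4 of 15 in adrenal, 0 to 9 of 15 and 1 to 3 of 12 falls in heart, 0 to 11 of 15 falls in iWAT in ZT14-22, and 3 to 4 of 8 rises in jejunum. Over all genes the calls fell from 33537 to 4741 and 18022 in ZT0-12 and from 44391 to 10303 and 17171 in ZT14-22, where fewer libraries entered the fits.

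With the replicate block the calls were 136 in ZT0-12, 125 in ZT14-22 and 3 for the difference, and the rhythmic pairs were 94 in ALF and 261 in TRF. The difference had 12 pairs without ZT0 and ZT22 and 13 with DESeq2, beside 1.16% and 1.54% of all tests. An amplitude of at least 0.25 left 48 rhythmic pairs in ALF. In adrenal GC offsets left 4 rises, GC offsets with the replicate block 4, and leaving out ZT0 and ZT22 5, which also left 5 falls in heart in ZT14-22. The cause was not tested. Of the 51 values named by tissue and window, 44 passed with GC offsets, 48 without ZT0 and ZT22, 11 without replicate 1 and 26 without replicate 2, and all 51 with DESeq2, its size factors, no filter, the replicate block, or without the libraries in doubt. Single-library times (21 groups) and low counts of Acot3 and Acot4 limit depth.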
